A study of Sus scrofa with 3 samples.

Results

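The genes described here are 10 regulators of transcription that are best known from B cells and myeloid cells: PAX5, EBF1, POU2F2, POU2AF1, BACH2, BCL11A, AFF3, IRF4, IRF8 and SPI1. They were chosen by symbol, and all 10 have a row among the 26466 gene symbols of the deposited count files. Expression was measured in pig cells (Sus scrofa) with 1 library each of mesenchymal stem cells from bone marrow (BM-MSC), of bone marrow attached cells (BMAC) and of peripheral blood mononuclear cells (PBMC). Each library was made from 500 ng of total RNA with a Lexogen QuantSeq kit, which reads a fragment near the 3' end of polyadenylated transcripts. The labels name no treatment, strain, age, culture step or animal, so it is not known whether the populations came from 1 pig or several.

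B cells are specified by a small network of factors. EBF1 and PAX5 switch on the genes of the B cell receptor and hold the B cell programme in place, and SPI1 (PU.1) acts earlier and also drives monocytes, macrophages and neutrophils. IRF4 and IRF8 bind DNA weakly alone, and partners such as SPI1 or its relative SPIB help them bind. POU2F2 (OCT2) and its partner POU2AF1 (OBF-1) act at octamer sites, BACH2 holds back plasma cell differentiation, and BCL11A is needed for early lymphoid development. In mice, EBF1 is also active in marrow stromal and fat-forming cells.

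The libraries held 17069344 in BM-MSC, 15122997 in BMAC and 15445903 counts in PBMC. Values are counts per 1000000 library counts (CPM), and intervals in parentheses are 95% exact intervals that cover counting error only. With 1 library per population no difference has a replicate check, and no test was run. A gene was called different when log2((CPM + 1)/(CPM + 1)) was at least 2 in size, which is 4-fold, and the higher library reached 10 CPM and 10 counts. Counts are not scaled by gene length and depend on the annotated 3' ends, and whether reads inside introns were counted is not given in the sources used here, so each gene is compared with itself across libraries. Stromal markers such as COL1A1 and PDGFRB summed over 12 genes to 21211 in BM-MSC, 12144 in BMAC and 62.5 CPM in PBMC. T and natural killer cell markers summed over 19 genes to 23.4 in BM-MSC, 48.2 in BMAC and 2334 CPM in PBMC, so the marrow libraries carried the stromal markers and PBMC those of leukocytes.

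All 10 factors were higher in PBMC than in both marrow populations. The exception in size was EBF1, which was well detected in all 3 libraries. By the 4-fold rule 10 of 10 were called lower in BM-MSC than in PBMC, where the background was 15.7% of 11428 genes lower and 14.3% higher. In BMAC 10 of 10 were called lower, where the background was 12.8% of 11371 genes lower and 14% higher. For 9 of the 10 the 10 CPM minimum was reached through PBMC alone. That favours such a call: of all genes at or above 10 CPM in PBMC and below it in BM-MSC, 57.8% were called lower, and for BMAC the share was 57.7%. Counts and medians over the factors are therefore given as descriptions only. In whole populations like these, fewer cells of a type and less RNA per cell cannot be told apart.

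**Figure D1:**
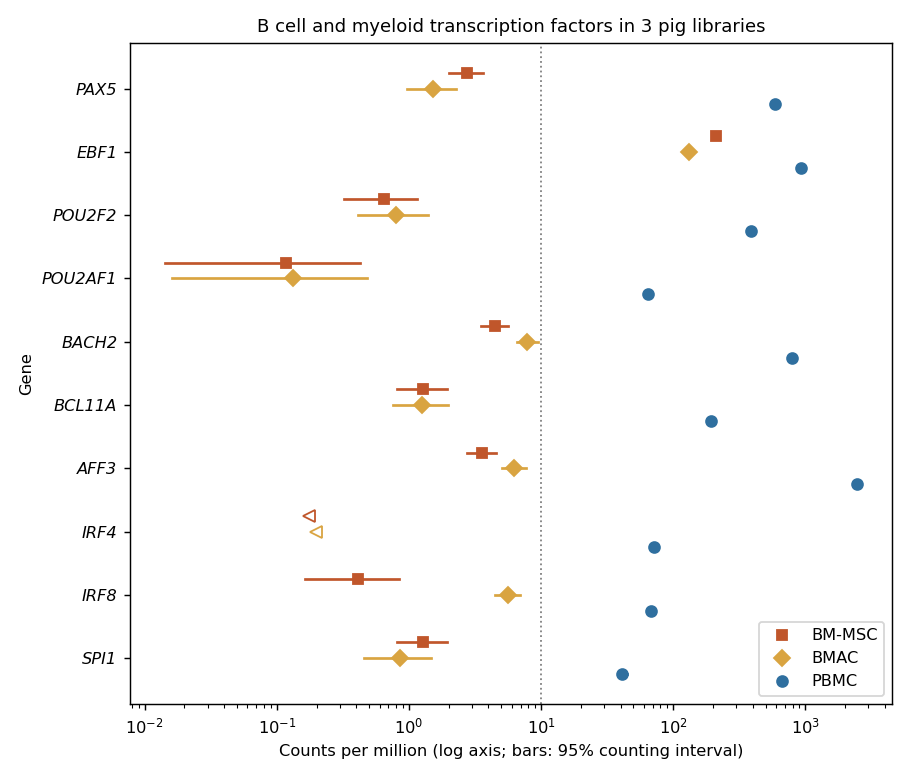
Level of each factor in BM-MSC (squares), BMAC (diamonds) and PBMC (circles), in CPM on a log axis, with 95% counting intervals where they are wider than the symbol. Open triangles mark 0 counts and stand at the value of 3 counts, and the dotted line is 10 CPM, which only EBF1 passed outside PBMC.

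PAX5, the factor that commits cells to the B lineage, had 47 in BM-MSC, 23 in BMAC and 9026 counts in PBMC. These are 2.75 in BM-MSC, 1.52 in BMAC and 584 CPM in PBMC. The BM-MSC level was thus 0.471% of the PBMC level (0.346 to 0.627), and the BMAC level 0.260% (0.165 to 0.391). PAX5 was low but not absent in both marrow libraries.

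EBF1 stood at 212 in BM-MSC, 132 in BMAC and 928 CPM in PBMC, from 3615 in BM-MSC, 1989 in BMAC and 14327 counts in PBMC. That was 22.8% of the PBMC level in BM-MSC (22.0 to 23.7) and 14.2% in BMAC (13.5 to 14.9), the largest shares among the 10 factors. Its log2 ratio to PBMC of -2.13 in BM-MSC lay just past the threshold, and became -1.79 with TMM factors and -1.77 with median-of-ratios factors, so that this call was lost. In BMAC the ratio was -2.81, and it passed the threshold under both. The annotated span of EBF1 overlaps the row LOC106506547, which held 673 in BM-MSC, 206 in BMAC and 702 counts in PBMC. These equal 18.6% of the EBF1 count in BM-MSC, 10.4% in BMAC and 4.90% in PBMC. With those counts taken off, EBF1 kept 172 (BM-MSC), 118 (BMAC) and 882 CPM (PBMC). Its log2 ratio to PBMC by library total was then -2.35 in BM-MSC and -2.89 in BMAC.

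The 2 factors that act together in early B cells thus behaved differently outside blood. There were 76.9 EBF1 counts per PAX5 count in BM-MSC (57.7 to 105), 86.5 in BMAC (57.5 to 137) and 1.59 in PBMC (1.55 to 1.63). The intervals of BM-MSC and BMAC overlapped, and both lay far above that of PBMC.

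POU2F2, an octamer-binding factor, had 11 in BM-MSC, 12 in BMAC and 6026 counts in PBMC, or 0.644 in BM-MSC, 0.793 in BMAC and 390.1 CPM in PBMC. Its coactivator POU2AF1 had 2 in BM-MSC, 2 in BMAC and 1002 counts in PBMC, or 0.117 in BM-MSC, 0.132 in BMAC and 64.9 CPM in PBMC. Both genes were close to undetected in the marrow libraries. As shares of PBMC, POU2F2 stood at 0.165% in BM-MSC (0.0824 to 0.296) and 0.203% in BMAC (0.105 to 0.356). POU2AF1 stood at 0.181% in BM-MSC (0.0218 to 0.654) and 0.204% in BMAC (0.0247 to 0.738), so the counts do not separate the partners from each other.

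BACH2, a repressor of the plasma cell programme that T cells also use, had 4.45 in BM-MSC, 7.87 in BMAC and 788 CPM in PBMC, from 76 in BM-MSC, 119 in BMAC and 12164 counts in PBMC. AFF3, a member of a family of elongation factor subunits, had 3.57 in BM-MSC, 6.28 in BMAC and 2467 CPM in PBMC, from 61 in BM-MSC, 95 in BMAC and 38112 counts in PBMC. AFF3 had log2 ratios to PBMC of -9.08 in BM-MSC and -8.41 in BMAC, the most negative of the 10 with the pseudocount of 1 CPM, which draws low genes towards 0. As a share of the PBMC level it stood at 0.145% in BM-MSC (0.111 to 0.186) and 0.255% in BMAC (0.206 to 0.311), and these intervals overlapped those of POU2F2 and POU2AF1. By the ratio with the pseudocount AFF3 ranked 6 from the lowest of 11428 genes in BM-MSC and 19 from the lowest of 11371 genes in BMAC. BCL11A, a zinc finger repressor, had 1.29 in BM-MSC, 1.26 in BMAC and 194 CPM in PBMC, from 22 in BM-MSC, 19 in BMAC and 3001 counts in PBMC. Its shares of the PBMC level were 0.663% in BM-MSC (0.415 to 1.01) and 0.647% in BMAC (0.389 to 1.01).

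IRF4, which acts in activated B cells and plasma cells, had 0 counts in BM-MSC, 0 counts in BMAC and 1111 counts (71.9 CPM) in PBMC. With 3 counts as the limit in each library, which is 0.176 CPM for BM-MSC and 0.198 CPM for BMAC, it was at least 409-fold lower in BM-MSC and at least 363-fold lower in BMAC. IRF4 was the 1 factor without a count in the marrow libraries.

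IRF8, which directs monocytes, dendritic cells and B cells, had 7 in BM-MSC, 85 in BMAC and 1041 counts in PBMC, or 0.410 in BM-MSC, 5.62 in BMAC and 67.4 CPM in PBMC. It was the factor that separated the marrow populations from each other most: its share of the PBMC level was 0.608% in BM-MSC (0.244 to 1.26) and 8.34% in BMAC (6.605 to 10.4). BM-MSC stood 13.7-fold below BMAC (6.37 to 35.1). Both were under 10 CPM, so this difference was not called, but with a minimum of 1 CPM it was, at a log2 ratio of -2.23.

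SPI1, the myeloid and early B cell factor, had 22 in BM-MSC, 13 in BMAC and 638 counts in PBMC, or 1.29 in BM-MSC, 0.8596 in BMAC and 41.3 CPM in PBMC. It kept 3.12% of the PBMC level in BM-MSC (1.94 to 4.77) and 2.08% in BMAC (1.102 to 3.58). There were 0.318 IRF8 counts per SPI1 count in BM-MSC (0.115 to 0.771), 6.54 in BMAC (3.63 to 12.8) and 1.63 in PBMC (1.48 to 1.80), and these 3 intervals did not overlap. Myeloid genes that SPI1 is known to control summed over 19 genes to 86.4 in BM-MSC, 104 in BMAC and 1878 CPM in PBMC. Of these, 2 reached 10 CPM in BM-MSC, 4 in BMAC and 17 in PBMC. The 4 in BMAC were LYN (30.8 in BM-MSC, 36.9 in BMAC and 297 CPM in PBMC), CTSS (20.2 in BM-MSC, 19.4 in BMAC and 401 CPM in PBMC), CD14 (3.63 in BM-MSC, 17.3 in BMAC and 12.9 CPM in PBMC) and NCF4 (3.98 in BM-MSC, 11.2 in BMAC and 138 CPM in PBMC). The genes of the list at 0 counts were 2 in BM-MSC, 3 in BMAC and 0 in PBMC. In BMAC they were LYZ, FCER1G and FGR, and CSF1R had 2 counts and TYROBP 3 counts there. The part of myeloid cells in the IRF8 counts of BMAC was not tested.

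**Figure D2:**
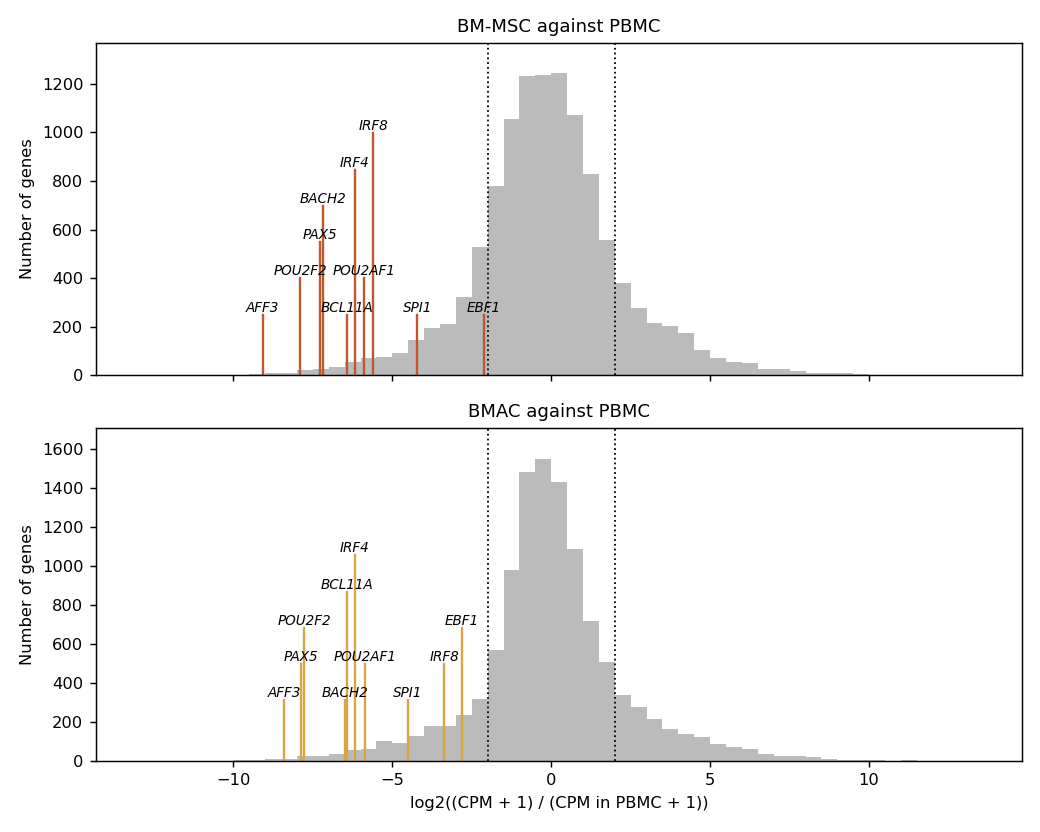
Histogram of log2((CPM + 1)/(CPM in PBMC + 1)) over all genes at 10 CPM or more in at least 1 library of the pair, for BM-MSC (top) and BMAC (bottom) against PBMC, with the 10 factors as labelled lines whose height has no meaning. Dotted lines mark -2 and 2; the factors lie from -9.08 to -2.13 in BM-MSC and from -8.41 to -2.81 in BMAC.

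The ratios of the 10 factors had a median of -6.30 in BM-MSC and -6.31 in BMAC, beside medians over all genes tested of -0.16 in BM-MSC and -0.12 in BMAC. Without the pseudocount and with IRF4 set to 3 counts, the factors' medians were -7.60 in BM-MSC and -7.89 in BMAC. Against PBMC, the median over all genes shifted upward by 0.39 for BM-MSC and 0.33 for BMAC under TMM scaling, and by 0.42 for BM-MSC and 0.34 for BMAC under median-of-ratios scaling. These scalings also changed the share of BM-MSC calls that were higher, which was 58.5% under TMM scaling and 59.5% under median-of-ratios scaling, beside 47.6% by library total. Both comparisons use the same PBMC library, so their likeness is no separate evidence.

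IRF8 was 13.7-fold lower in BM-MSC than in BMAC, from 7 counts in BM-MSC and 85 in BMAC. It was 11.99-fold lower in BMAC than in PBMC (9.61 to 15.1). With the pseudocount the log2 ratios were -2.23 for BM-MSC against BMAC and -3.37 for BMAC against PBMC. For the other factors with counts in both marrow libraries the ratio of BM-MSC to BMAC lay between 0.566 and 1.81. EBF1 alone reached 10 CPM here, and it was 1.61-fold higher in BM-MSC (1.52 to 1.70), short of the 4-fold rule, so that 0 of the 10 were called. The background was 3.21% of 10303 genes lower and 2.9% higher in BM-MSC. PAX5 was 1.81-fold higher in BM-MSC (1.08 to 3.12), AFF3 was 1.76-fold lower (1.26 to 2.47) and BACH2 was 1.77-fold lower (1.31 to 2.39). For POU2F2, POU2AF1, BCL11A and SPI1 the interval of the ratio included 1, so the order of the marrow libraries was not resolved at this depth, and IRF4 had no counts to compare.

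**Figure D3:**
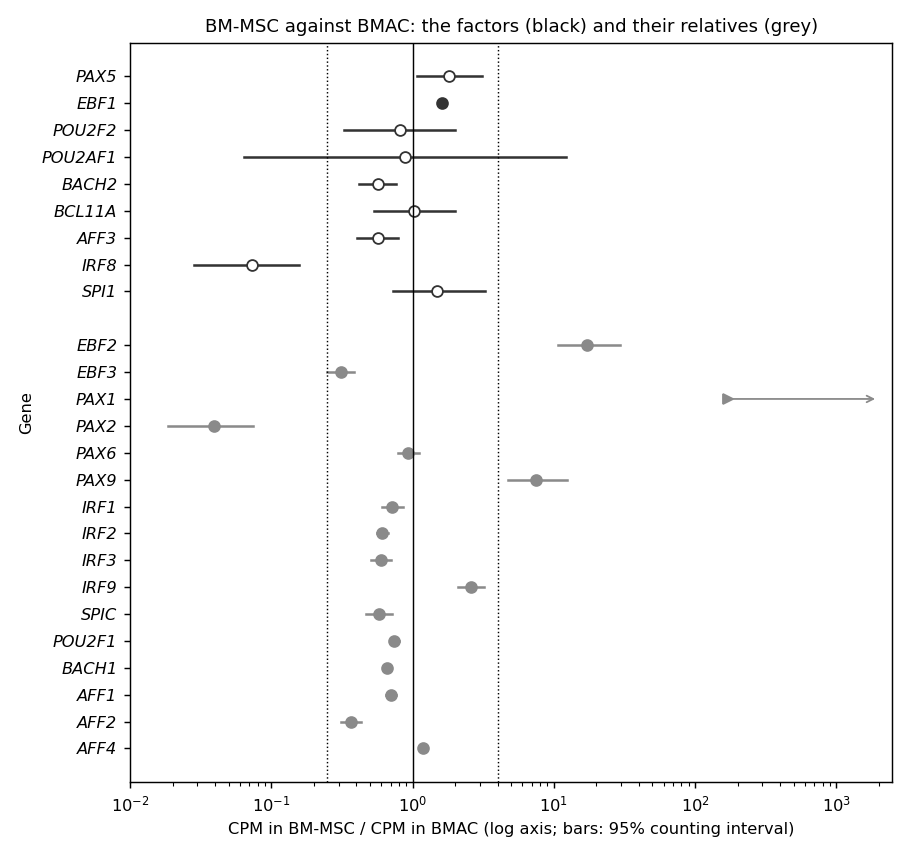
Ratio of CPM in BM-MSC to CPM in BMAC on a log axis for 9 of the factors (black) and for their relatives that reached 10 CPM in either of these libraries (grey), with 95% counting intervals. Open symbols mark genes under 10 CPM in both, the arrow is a lower bound for PAX1 (0 counts in BMAC), and dotted lines mark 4-fold. IRF8, PAX2, EBF2, PAX9 and PAX1 lie outside those lines.

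Close relatives of the factors were set beside them to see which family members each population carried. Of 25 relatives with a row, 16 reached 10 CPM in BM-MSC or PBMC, of which 4 were called higher and 4 lower in BM-MSC, with a median log2 ratio of -0.42. In BMAC against PBMC 15 did so, with 3 higher and 3 lower and a median of 0.38. Between BM-MSC and BMAC 16 did so, with 3 higher and 1 lower in BM-MSC and a median of -0.47, beside -0.09 over all genes tested. Over all genes tested, 14.3% were called higher and 15.7% lower in BM-MSC against PBMC, and 14% higher and 12.8% lower in BMAC against PBMC. In BM-MSC against BMAC 2.9% were higher and 3.21% lower. None of the calls of relatives changed with TMM or median-of-ratios factors.

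In the EBF family, EBF2 stood at 20.5 in BM-MSC, 1.19 in BMAC and 3.37 CPM in PBMC. EBF3, whose span overlaps LOC106506157, stood at 6.74 in BM-MSC, 21.6 in BMAC and 0.777 CPM in PBMC. EBF2 was thus 17.2-fold higher in BM-MSC than in BMAC (10.7 to 29.4), whereas EBF3 was 3.21-fold lower (2.59 to 4.005) and not called. EBF4 stayed between 1.93 and 3.97 CPM. There were 10.3 EBF1 counts per EBF2 count in BM-MSC (9.25 to 11.6) and 111 in BMAC (69.7 to 187), against 276 in PBMC (210 to 369).

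Within the PAX family, PAX1 and PAX9 were called higher in BM-MSC, and PAX2 in BMAC, than in either other library. PAX1, a factor of the embryonic sclerotome, had 582 counts (34.1 CPM) in BM-MSC, 0 counts in BMAC and 2 counts in PBMC, and was at least 172-fold higher in BM-MSC than in BMAC. PAX9, a sclerotome factor too, whose span overlaps SLC25A21, stood at 10.4 in BM-MSC, 1.39 in BMAC and 0 CPM in PBMC and was 7.51-fold higher in BM-MSC than in BMAC (4.77 to 12.4). PAX2, known from kidney development, stood at 0.586 in BM-MSC, 14.9 in BMAC and 0.324 CPM in PBMC and was 25.4-fold lower in BM-MSC than in BMAC (13.6 to 53.7). PAX6, known from the eye, stood at 16.0 in BM-MSC, 17.1 in BMAC and 0.647 CPM in PBMC, with a BM-MSC to BMAC ratio of 0.934 (0.785 to 1.11). It was called higher than in PBMC in both, at log2 ratios of 3.37 in BM-MSC and 3.46 in BMAC.

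Among the interferon regulatory factors, IRF5, whose span overlaps KCP, was called lower in both marrow libraries, with 0.527 in BM-MSC, 0.529 in BMAC and 55.4 CPM in PBMC. IRF2 stood at 49.6 in BM-MSC, 81.4 in BMAC and 274 CPM in PBMC, 5.52-fold lower in BM-MSC than in PBMC (5.13 to 5.95), and 3.37-fold lower in BMAC (3.16 to 3.59), which was not called. IRF1, which overlaps SLC22A5, stood at 15.2 in BM-MSC, 21.1 in BMAC and 38.5 CPM in PBMC, IRF3 at 14.5 in BM-MSC, 24.2 in BMAC and 17.9 CPM in PBMC, and IRF9 at 20.6 in BM-MSC, 7.93 in BMAC and 8.68 CPM in PBMC, and none of these was called in any pair. SPIB, the relative of SPI1 in B cells and plasmacytoid dendritic cells, had 0 counts in both marrow libraries and 26.1 CPM in PBMC. It was at least 148-fold lower in BM-MSC and at least 132-fold lower in BMAC, whereas SPIC stood at 8.38 in BM-MSC, 14.5 in BMAC and 6.41 CPM in PBMC.

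Of the remaining families, those of POU2F2, BACH2 and AFF3 had a widely expressed member that was detected in all 3 libraries. POU2F1 had 1144 in BM-MSC, 1361 in BMAC and 3538 counts in PBMC, so that there were 0.00962 POU2F2 counts per POU2F1 count in BM-MSC (0.00479 to 0.0173), 0.00882 in BMAC (0.00454 to 0.0155) and 1.70 in PBMC (1.63 to 1.78). BACH1 stood at 96.7 in BM-MSC, 148 in BMAC and 113 CPM in PBMC. There were 0.0460 BACH2 counts per BACH1 count in BM-MSC (0.0361 to 0.0579), 0.0533 in BMAC (0.0440 to 0.0642) and 6.95 in PBMC (6.61 to 7.31). AFF4 stood at 236 in BM-MSC, 200.1 in BMAC and 140 CPM in PBMC, and AFF1 at 64.7 in BM-MSC, 91.5 in BMAC and 188 CPM in PBMC, with neither called. AFF2, which overlaps LOC110257797, stood at 12.1 in BM-MSC, 33.1 in BMAC and 18.3 CPM in PBMC. BCL11B, the T cell counterpart of BCL11A, stood at 0.352 in BM-MSC, 0.331 in BMAC and 235 CPM in PBMC and was called lower in both marrow libraries, as BCL11A was.

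Other regulators of the B lineage were split. Of 19 measured in each pair with PBMC, 9 were called lower and 3 higher in BM-MSC (median log2 ratio -1.90), and 9 lower and 3 higher in BMAC (median -1.67). With TMM factors, 8 of the 19 were lower in BM-MSC. Over all genes tested, 15.7% were called lower and 14.3% higher in BM-MSC, and 12.8% lower and 14% higher in BMAC. The 3 of 19 higher were near those shares. IKZF1 (Ikaros), a lymphoid zinc finger factor, stood at 1.35 in BM-MSC, 0.595 in BMAC and 589 CPM in PBMC, and its relative IKZF3 (Aiolos) at 1.82 in BM-MSC, 2.31 in BMAC and 650 CPM in PBMC. The higher genes were ID3, an inhibitor of E proteins, XBP1 and, named after its values were seen, BCL6. ID3 stood at 898 in BM-MSC, 444 in BMAC and 9.45 CPM in PBMC, and BCL6 at 51.0 in BM-MSC, 91.0 in BMAC and 11.98 CPM in PBMC. TCF3, an E protein gene whose span overlaps LOC100524239, stood at 82.4 in BM-MSC, 54.9 in BMAC and 70.1 CPM in PBMC and was not called.

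Genes of the B cell receptor and surface that EBF1 and PAX5 are known to control were mostly lower in both marrow libraries than in PBMC. Of 13 measured, 11 were called lower in BM-MSC (median log2 ratio -3.94, or -5.72 with 0 taken as 3 counts and no pseudocount) and 11 in BMAC (median -4.09, or -5.85). In each pair 11 of the 13 reached 10 CPM through PBMC alone. Of all genes that did so, 57.8% were called lower in BM-MSC and 57.7% in BMAC. CD79B, a signalling chain of the receptor, had 0 counts in both marrow libraries and 76.5 CPM in PBMC. MS4A1 (CD20), whose span overlaps MS4A4A, had 1 count in BM-MSC, none in BMAC and 7011 counts (454 CPM) in PBMC. BANK1, an adaptor, stood at 1.46 in BM-MSC, 1.98 in BMAC and 869 CPM in PBMC. RALGPS2, whose span overlaps ANGPTL1, was called lower in both but stayed above 10 CPM. It stood at 51.8 in BM-MSC, 22.3 in BMAC and 812 CPM in PBMC. CD40 and CD72 were not called. CD40 stood at 7.15 in BM-MSC, 13.0 in BMAC and 26.4 CPM in PBMC, and CD72, whose span overlaps TESK1, at 18.0 in BM-MSC, 7.54 in BMAC and 11.2 CPM in PBMC. CD79A, FCER2 and TNFRSF13C stayed below 10 CPM in every library, and CD79A had only 6 counts in PBMC.

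Plasma cell genes went both ways, with 3 of 8 lower and 1 higher in BM-MSC and 2 of 8 lower and 1 higher in BMAC. Over all genes tested, 15.7% were called lower and 14.3% higher in BM-MSC, and 12.8% lower and 14% higher in BMAC. The 1 of 8 higher was near those shares. The lower genes reached 10 CPM through PBMC alone, and of all genes that did so 57.8% were called lower in BM-MSC and 57.7% in BMAC. JCHAIN, the joining chain of secreted antibodies, stood at 0.176 in BM-MSC, 0.397 in BMAC and 52.2 CPM in PBMC, and PRDM1, the repressor that BACH2 opposes, at 0.352 in BM-MSC, 1.06 in BMAC and 24.99 CPM in PBMC. TNFRSF17 (BCMA), which overlaps LOC100739121, was the third in BM-MSC, at 1.64 in BM-MSC, 3.57 in BMAC and 14.7 CPM in PBMC. XBP1, a factor of the secretory pathway in many cell types, was the higher gene, at 66.4 in BM-MSC, 66.1 in BMAC and 11.2 CPM in PBMC. The median log2 ratio was -0.12 in BM-MSC, which became 0.19 with TMM factors, and -0.92 in BMAC. SDC1 and SSR4, which overlaps IDH3G, were also called higher in BMAC with TMM or median-of-ratios factors, which made 3.

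Myeloid regulators other than SPI1 and IRF8 were split too, with 4 of 13 lower in each pair with PBMC, 2 higher in BM-MSC and 4 higher in BMAC. Over all genes tested, 15.7% were called lower and 14.3% higher in BM-MSC, and 12.8% lower and 14% higher in BMAC. The 2 of 13 higher in BM-MSC were near that share. The medians of the 13 were -0.08 in BM-MSC, turning to 0.25 with TMM factors, and -0.97 in BMAC. TFEC, MAF and ZEB2 were among the lower genes, and TFEC stood at 2.23 in BM-MSC, 2.18 in BMAC and 138 CPM in PBMC. GATA2, a factor of blood stem cells and mast cells, stood at 23.4 in BM-MSC, 40.8 in BMAC and 0.388 CPM in PBMC and was higher in both, as was KLF4, at 38.8 in BM-MSC, 22.0 in BMAC and 3.50 CPM in PBMC. TAL1, a haematopoietic and endothelial factor at 7.91 in BM-MSC, 23.2 in BMAC and 0.129 CPM in PBMC, and CEBPD, at 226 in BM-MSC, 416 in BMAC and 92.3 CPM in PBMC, were the other genes called higher in BMAC. With TMM or median-of-ratios factors LYL1, which overlaps NFIX, was also called higher in both, and ZEB2 was no longer called in BMAC.

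Of 17 myeloid targets of SPI1 measured, 16 were called lower in BM-MSC and 16 in BMAC, and CD14 was not called in either. The median log2 ratio was -4.80 in BM-MSC and -4.91 in BMAC. Without the pseudocount and with 0 taken as 3 counts, it was -5.77 in BM-MSC and -6.43 in BMAC. Of the 17, 15 reached 10 CPM through PBMC alone in the pair with BM-MSC and 13 in the pair with BMAC, and of all genes that did so 57.8% were called lower in BM-MSC and 57.7% in BMAC. TYROBP, a signalling adaptor, stood at 2.28 in BM-MSC, 0.198 in BMAC and 223 CPM in PBMC, and LYZ, lysozyme, at 0.644 in BM-MSC, 0 in BMAC and 95.5 CPM in PBMC.

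As a share of the PBMC level, the factors and markers of other blood cells were both low in the marrow libraries. Over the 10 factors the median share was 0.518% in BM-MSC and 0.453% in BMAC. Over 17 T and natural killer cell markers at 10 CPM or more in PBMC it was 0.379% in BM-MSC and 0.258% in BMAC, with 17 of 17 called lower in BM-MSC and 16 of 17 in BMAC, all but GATA3. All 17 reached 10 CPM through PBMC alone in the pair with BM-MSC, and 16 in the pair with BMAC, where the shares over all such genes were again 57.8% for BM-MSC and 57.7% for BMAC. Over 17 myeloid SPI1 targets it was 1.83% in BM-MSC and 1.16% in BMAC, and over 13 B cell targets 1.89% in BM-MSC and 1.303% in BMAC. Shares of single factors ran from 0 for IRF4 to 22.8% for EBF1 in BM-MSC, and from 0 to 14.2% in BMAC. The part that blood cells among the marrow cells could have in these values was not tested. Of the markers of plasmacytoid dendritic cells, which use IRF8, BCL11A and SPIB, 3 of 6 were called lower in each marrow library: PLD4, SPIB and IL3RA. These 3 reached 10 CPM through PBMC alone, as did the genes behind the shares of 57.8% and 57.7%. Not called were TCF4 (168 in BM-MSC, 247 in BMAC and 345 CPM in PBMC) and RUNX2, which overlaps SUPT3H (78.6 in BM-MSC, 196 in BMAC and 261 CPM in PBMC). TLR9, which overlaps TWF2 (26.8 in BM-MSC, 19.5 in BMAC and 38.7 CPM in PBMC), was not called either. The TWF2 row held 98.9% as many counts as TLR9 in BM-MSC, 96.6% in BMAC and 97.0% in PBMC. Whether the TLR9 counts come from TLR9 itself is therefore not known. The median over the 6 was -2.70 in BM-MSC and -2.47 in BMAC. Without the pseudocount and with 0 taken as 3 counts, it was -3.85 in BM-MSC and -3.60 in BMAC.

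**Figure D4:**
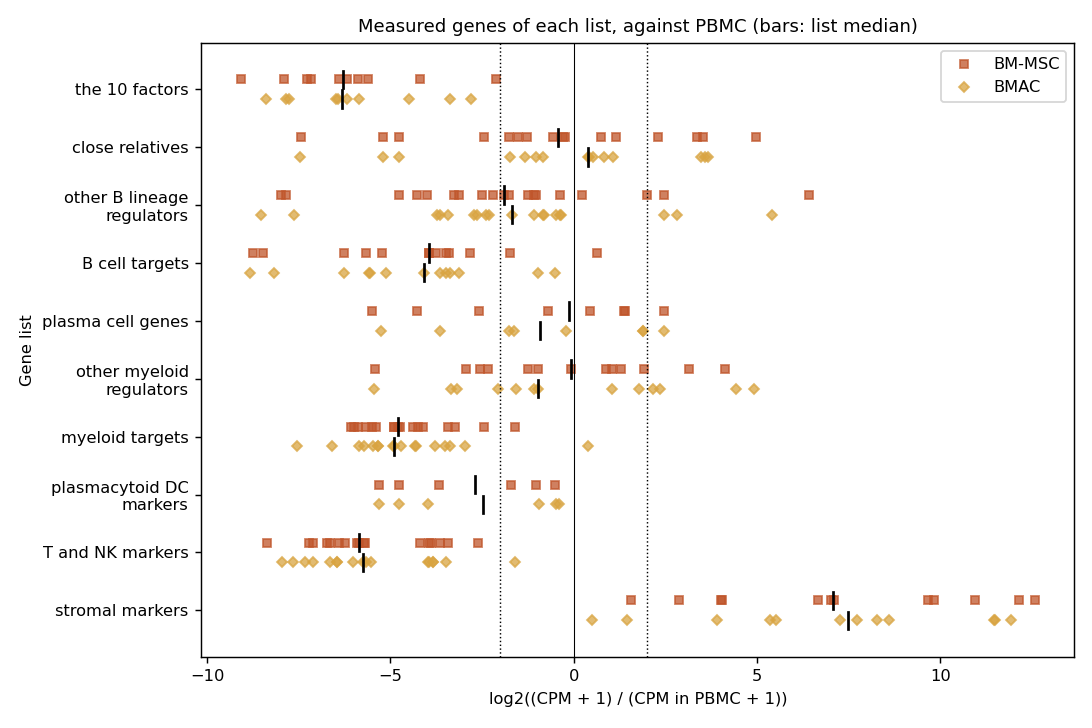
log2((CPM + 1)/(CPM in PBMC + 1)) of each measured gene, by list, for BM-MSC (squares) and BMAC (diamonds), with black bars at the list medians and dotted lines at -2 and 2. The 10 factors, B cell targets, myeloid targets and T and natural killer cell markers lie mostly left of -2, whereas relatives and other regulators spread to both sides and stromal markers lie to the right.

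The genes whose levels were most like each factor were taken as those with the smallest value of the largest absolute difference in log2(CPM + 1) over the 3 libraries, among 10440 named genes at 10 CPM or more in any of them. For PAX5 they were ARHGAP25, RCSD1 and IKZF3, with largest differences of 0.24, 0.34 and 0.41. EBF1 had the nearest genes CHD2, AKAP13 and LRBA, at 0.45, 0.56 and 0.61, where the span of LRBA overlaps MAB21L2. CHD2 stood at 155 in BM-MSC, 176 in BMAC and 686 CPM in PBMC. POU2F2 was nearest to PRKCQ, EPHB6 and SATB1, at 0.11, 0.37 and 0.40. Among the nearest to POU2AF1 were FGD2 and CTSW, at 0.14 and 0.16. For BACH2 these were PLCL1, NCALD (which overlaps GRHL2) and PDE3B, at 0.22, 0.27 and 0.47. For BCL11A they included ARHGAP30 and STAT4, at 0.39 and 0.41, and for AFF3 they were RIPOR2, PRKCB and ARHGAP15, at 0.61, 0.88 and 1.05. IRF4 was nearest to GZMH, LRRC18 (which overlaps WDFY4) and CD79B, at 0.08, 0.08 and 0.09. IRF8 had no gene closer than STK26, SH3BP1 (which overlaps GGA1) and IL18R1, at 0.66, 0.66 and 0.67. SPI1 was nearest to ALPK2 (which overlaps LOC106509068), KCP (which overlaps IRF5) and UMODL1 (which overlaps LOC110256493), at 0.15, 0.28 and 0.28. With 3 libraries, such likeness describes levels and nothing more.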

How the data were processed

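The authors deposited 1 file per library with raw counts per annotation row, judged from the values, which are whole and sum differently in each file. The submitters' processing notes list the tools Bowtie2 and bedtools, with neither version nor role. Build, annotation, strand setting and the treatment of multi-mapping reads are details not given in the sources used here. For use, 26965 rows were summed over 26466 symbols, 81 of them on several rows. All symbols were found in the RefSeq table of Sscrofa11.1, used only for names and overlaps. An overlapping row is named where it held at least 25% of a gene's count in any library, and also for EBF1.

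Counts were divided by library totals and scaled to 1000000 (CPM), with a pseudocount of 1 CPM in log2 ratios. Intervals are exact Poisson or Clopper-Pearson limits, for counting error only; a 0 was bounded at 3 counts. Depth was 15122997 to 17069344 counts. No spread can be estimated from 1 library per group, so edgeR gave only TMM factors. The calls and intervals were tested on simulated data. Alternatives changed the scaling, pseudocount, minimum and fold.

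The members and the 9 lists were chosen with earlier results of these data known. By rule, genes could be named if they were members, relatives at 10 CPM, one of the 3 nearest in level to a member, or among the 3 largest ratios or the smallest of a list in a pair, and not all of these are printed; other named genes were chosen after their values were seen. Promoter motifs were not searched. Of 162 listed genes, 7 had no row under the symbol used and were not analysed here. A few genes that the rule would name are not reported here. Python 3.11.15, SciPy 1.17.1, R 4.3.3 and edgeR 4.0.16 were used.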

Additional observations from a re-analysis of the deposited data

How the results depend on the processing

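With 1 library per population, neither animal nor culture nor library variation could be measured. No paired analysis was possible because each group has 1 library. Against PBMC, 9 or 10 of the 10 factors were called lower under every alternative run: EBF1 was lost in BM-MSC with TMM factors, median-of-ratios factors and the 8-fold rule and in BMAC with the 8-fold rule, and SPI1 in both with a minimum of 50 CPM. Between BM-MSC and BMAC the count of factors called went to 1, IRF8, with a minimum of 1 CPM and with no filter on low counts. Of 153 factor ratios under other settings, 0 changed sign against a call and 83 lay outside the counting interval of the ratio without a pseudocount. Ratios with the pseudocount can lie outside that interval under the main setting too, so the 83 do not measure a shift between settings. Taking the overlapping row off EBF1 was added after seeing the data and changed no call. Over all genes, the number called in BM-MSC against PBMC was 1912 with a minimum of 50 CPM, 6643 with a 2-fold rule and 1917 with an 8-fold rule, beside 3424. In BMAC against PBMC it was 1718, 5819 and 1876, beside 3042. In BM-MSC against BMAC it was 298, 1985 and 274, and 374 with a pseudocount of 5 CPM, beside 630.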
